A study of Homo sapiens with 9 samples.

Results

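The genes described here are 36 genes of cholesterol and fatty acid synthesis and of the control of both, taken by name from the count table of a study of ultraviolet A (UVA) damage in skin cells. All 36 were among the 61311 genes of the table, and all 36 were among the 15154 that passed the filter on low counts and were tested. They fall into 5 roles: 8 enzymes from acetyl-CoA to squalene, 10 enzymes from squalene to cholesterol, 5 genes of the SREBP factors and the proteins that hold or release them, 6 genes of sterol transport, efflux and the liver X receptors, and 7 genes of fatty acid synthesis and desaturation. The cells were HaCaT, a single line of immortalized human keratinocytes, wild type by its label and grown in DMEM with serum, so no group holds more than this 1 line. Control cells (NC) received neither treatment, UVA cells were irradiated with 5 J/cm2, and UVA + CT cells received the same UVA and then an extract of Coreopsis tinctoria flowers (CT), with 3 libraries in each group. No group received CT without UVA. The time from irradiation to harvest, and whether libraries of a group came from separate cultures, are not stated in the sources used here, so the p-values measure the spread between these libraries, which may be technical.

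The 9 libraries held 16390289 to 21971215 counts. All 10 keratinocyte markers were above 1 CPM (counts scaled to a common library size), with a summed level of 7295 to 8614 CPM in NC, 6056 to 6582 in UVA and 6171 to 6382 in UVA + CT. Of 7 fibroblast markers 0 had a mean above 1 CPM over the 9 libraries, with sums of 2.11 to 3.47, 0.972 to 1.33 and 1.06 to 1.15 CPM in the same order and PDGFRA at 0 throughout. COL3A1 among them fell from 1.12 CPM in NC to 0.387 in UVA (log2 -1.51, adjusted p = 0.0212). COL1A1, the other fibroblast marker tested, was not called (adjusted p = 0.107). Immune markers, 2 of 7 above 1 CPM, summed to 11.7 to 13.1, 16.001 to 20.7 and 15.7 to 16.8 CPM. CD68 among them rose after UVA (log2 0.79, adjusted p = 0.000115). Of 7 melanocyte markers 2 were above 1 CPM (sums of 5.46 to 6.17, 5.17 to 5.88 and 4.63 to 6.44, with TYR at 0), of 4 endothelial markers 2 (6.997 to 9.75, 8.39 to 9.25 and 5.74 to 6.87, with KDR at 0), and of 6 sebocyte markers 3 (36.4 to 47.1, 30.4 to 35.8 and 37.7 to 40.0, with AWAT1 and MC5R at 0). After UVA the endothelial CDH5 rose (log2 0.76, adjusted p = 0.00568) and the sebocyte marker MUC1 fell (log2 -0.81, adjusted p = 0.00265). Of the 10 keratinocyte markers 7 fell after UVA at an edgeR adjusted p under 0.05, 70% against 10.6% of all tested genes. COL17A1 alone rose (log2 0.17, adjusted p = 0.00169), 10% of these markers against 10.5% of all tested genes. ITGA6 and ITGB4 were not called. KRT5 went from 2194 CPM in NC to 1451 in UVA, KRT15 from 775 to 317 and KRT14 from 925 to 705. Any part of the fall of the keratinocyte sum in the values of the members below was not tested.

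Cholesterol is built from acetyl-CoA through mevalonate, isoprenoids and squalene, and cells switch this pathway on when sterols run low. The membrane-bound factor SREBP-2, encoded by SREBF2, is then escorted from the endoplasmic reticulum by SCAP, released from its INSIG anchors, cut, and sent to the nucleus, where it binds sterol response elements in the promoters of the enzymes. SREBP-1, encoded by SREBF1, drives the fatty acid enzymes in the same way. When sterols are plentiful, their oxidized forms activate the liver X receptors (LXRs), which turn on the efflux pumps ABCA1 and ABCG1, the ubiquitin ligase MYLIP and SREBF1 itself. Keratinocytes are known for a very active lipid synthesis, since they supply the cholesterol, fatty acids and ceramides of the skin barrier.

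Promoters of 300 bases (250 before the start of transcription and 50 after it) from RefSeq, build GRCh38.p14, were matched to 31 of the 36 genes, with 44 promoters in all. ACAT2, FDFT1, SQLE, ABCG1 and FASN were not matched. A consensus sterol response element, TCACNCCAC on either strand, was found in 1 of the 31 genes, SREBF2, 133 bases before its start. It was found in 0 of the 15 sterol enzymes matched to a promoter. Elements that differ from these letters or lie outside the 300 bases were not searched for. The same letters were found in 1.39% of all 27305 genes of the RefSeq promoter set, which hold 35116 promoters. A gene counts once if any of its promoters matches, and shares of all genes in this paragraph refer to that set. The CCAAT box, CCAAT on either strand and so ATTGG on the other, to which the SREBP partner NF-Y binds, was found in 22 of 31 genes (71.0%) and in 13 of 15 sterol enzymes, against 39.7% of all genes. An LXR-type direct repeat, searched as a pair of GGTNA in the same direction with 5 bases between them, was found in ABCA1, 69 bases before its start, in a further promoter of HMGCS1 and in 0.780% of all genes. The E-box CACGTG was found in 5 of 31 genes (ABCA1, INSIG1, LSS, SC5D and SCAP) and in 8.78% of all genes. No match of one motif overlapped a match of another, and a match here is only a run of letters, not a measured site. The promoters printed are SREBF2, the gene with the response element, and 5 genes whose RNA differed between groups and whose values follow. In each the capitals mark the matches of 1 motif: the response element in SREBF2, the CCAAT boxes in HMGCS1, STARD4, SCD and MYLIP, and the direct repeat in ABCA1. Their places are chr22:41832855-41833154 (plus strand), chr5:43313363-43313662 (minus), chr5:111512486-111512785 (minus), chr10:100346983-100347282 (plus), chr6:16128836-16129135 (plus) and chr9:104928106-104928405 (minus).
SREBF2: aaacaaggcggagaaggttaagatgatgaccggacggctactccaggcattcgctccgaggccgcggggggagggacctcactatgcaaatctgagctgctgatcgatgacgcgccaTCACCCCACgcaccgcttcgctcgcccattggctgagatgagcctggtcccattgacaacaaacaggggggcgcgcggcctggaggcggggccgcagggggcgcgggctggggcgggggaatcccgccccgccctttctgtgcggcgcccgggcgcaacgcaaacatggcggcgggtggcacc
HMGCS1: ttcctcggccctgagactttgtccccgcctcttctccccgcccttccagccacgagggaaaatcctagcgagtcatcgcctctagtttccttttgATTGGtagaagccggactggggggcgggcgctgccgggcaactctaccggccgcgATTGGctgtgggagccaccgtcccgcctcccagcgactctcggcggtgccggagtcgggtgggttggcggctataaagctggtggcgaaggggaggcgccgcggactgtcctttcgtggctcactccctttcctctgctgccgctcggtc
STARD4: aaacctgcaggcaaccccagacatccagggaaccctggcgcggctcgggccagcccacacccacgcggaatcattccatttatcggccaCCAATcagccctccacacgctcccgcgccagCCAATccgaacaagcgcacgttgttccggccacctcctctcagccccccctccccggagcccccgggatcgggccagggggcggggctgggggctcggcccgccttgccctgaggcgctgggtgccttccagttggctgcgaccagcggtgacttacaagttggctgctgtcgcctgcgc
SCD: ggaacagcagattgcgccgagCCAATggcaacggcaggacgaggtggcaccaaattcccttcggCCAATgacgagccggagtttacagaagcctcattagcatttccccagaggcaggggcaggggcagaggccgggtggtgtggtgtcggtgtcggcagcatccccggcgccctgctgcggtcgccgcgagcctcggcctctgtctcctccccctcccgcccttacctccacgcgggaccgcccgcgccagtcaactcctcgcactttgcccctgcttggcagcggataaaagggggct
MYLIP: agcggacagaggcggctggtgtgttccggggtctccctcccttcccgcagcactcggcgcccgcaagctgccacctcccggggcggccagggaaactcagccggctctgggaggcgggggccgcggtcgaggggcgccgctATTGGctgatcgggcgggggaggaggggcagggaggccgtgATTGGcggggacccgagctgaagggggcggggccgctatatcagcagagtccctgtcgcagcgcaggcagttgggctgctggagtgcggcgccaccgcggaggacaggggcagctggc
ABCA1: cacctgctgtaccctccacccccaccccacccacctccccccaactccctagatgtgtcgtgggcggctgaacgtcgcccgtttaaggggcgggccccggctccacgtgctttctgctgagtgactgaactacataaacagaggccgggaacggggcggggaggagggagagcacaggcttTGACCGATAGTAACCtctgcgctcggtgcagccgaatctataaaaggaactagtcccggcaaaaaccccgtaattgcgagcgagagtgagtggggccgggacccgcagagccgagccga

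The question put to the UVA and NC libraries was how lipid synthesis genes differ after irradiation. The summed level of the cholesterol enzymes overlapped between the groups, while the sterol efflux pump ABCA1, SREBF1 and the fatty acid genes SCD, FASN and ACACA were lower. With an edgeR adjusted p under 0.05, 2 of 36 genes rose (HMGCS1 and ELOVL6) and 8 fell (MVK, SREBF1, STARD4, ABCA1, MYLIP, ACACA, FASN and SCD), which is 5.56% and 22.2% of the members against 10.5% and 10.6% of all tested genes. The median log2 fold change was -0.05 over the members and 0.00 over all tested genes. Of the 18 cholesterol enzymes 1 rose and 1 fell. Of the 6 transport, efflux and LXR genes 3 fell and 0 rose, and of the 7 fatty acid genes 3 fell and 1 rose. In bulk RNA a smaller number of cells of one state and less RNA in each cell cannot be told apart.

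**Figure D1:**
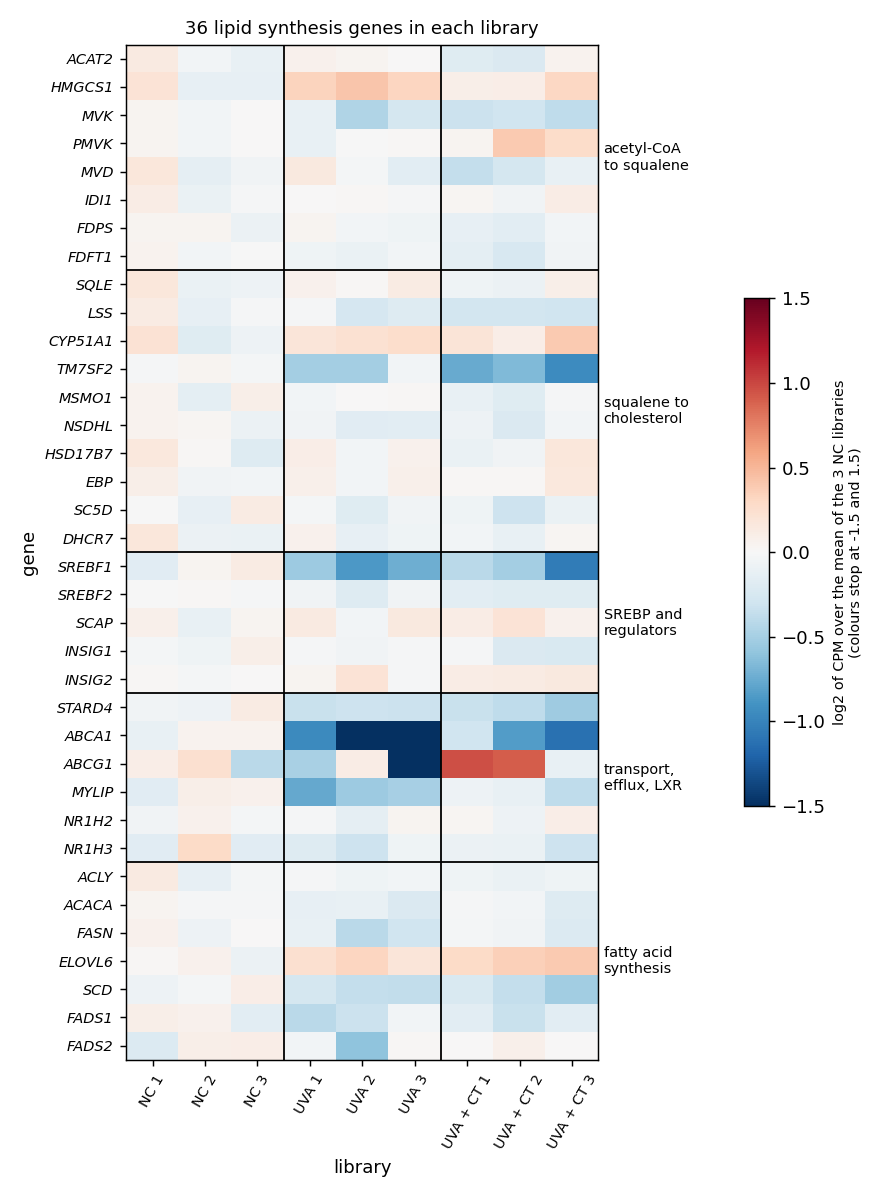
Levels of the 36 genes (rows, grouped by role) in the 9 libraries (columns), coloured by the log2 of CPM over the mean of the 3 NC libraries, with colours stopping at -1.5 and 1.5. ABCA1, MYLIP and SREBF1 are blue in every UVA library. HMGCS1, ELOVL6 and CYP51A1 are pale red in every UVA library, and most of the other cholesterol enzymes stay near white.

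The question put to UVA + CT and UVA was whether the extract given after UVA moved these genes. Of the 36 members 0 rose and 0 fell at an edgeR adjusted p under 0.05, where 0.944% of all tested genes rose and 0.614% fell. Before adjustment, 5 genes had a p under 0.05 with a higher level (PMVK, ABCA1, ABCG1, MYLIP and FASN) and 3 with a lower level (MVD, TM7SF2 and INSIG1), 13.9% and 8.33% of the members against 7.40% and 5.79% of all tested genes. DESeq2 called 1 higher (MYLIP) and 0 lower, and limma-voom called 0 in each direction. The median log2 fold change was 0.00 over the members and 0.00 over all tested genes. For 30 of the 36 the 95% interval of the log2 fold change lay within -0.5 and 0.5. The same held for 10259 of all 15154 tested genes. The 6 members whose intervals reached further were TM7SF2, SREBF1, ABCA1, ABCG1, MYLIP and FADS2.

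UVA + CT was also compared with NC, which asks what differed from control cells after both treatments. Here 1 of 36 genes rose (ELOVL6) and 10 fell (MVK, FDFT1, LSS, TM7SF2, SREBF1, SREBF2, INSIG1, STARD4, ABCA1 and SCD), which is 2.78% and 27.8% of the members against 15.7% and 14.2% of all tested genes. The median log2 fold change was -0.10 over the members and 0.00 over all tested genes. This comparison has its NC libraries in common with UVA against NC and its UVA + CT libraries in common with UVA + CT against UVA, so the 3 sets of values are not independent.

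**Figure D2:**
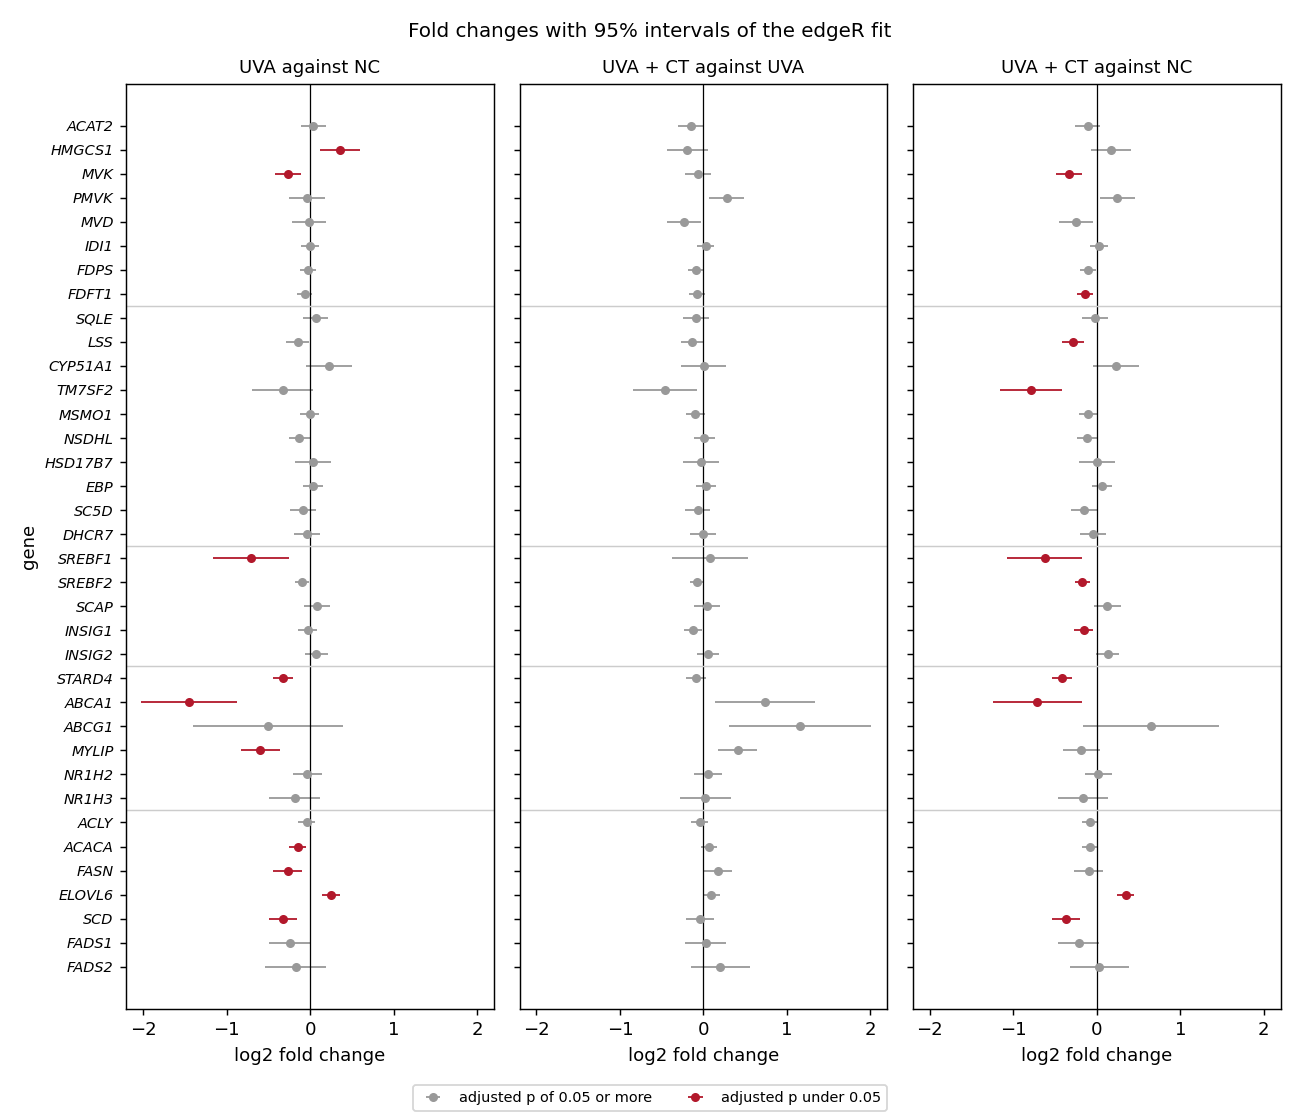
Log2 fold changes of the 36 genes (points) with 95% intervals of the edgeR fit (lines) in the 3 comparisons, with red for an adjusted p under 0.05. The red points of UVA against NC lie mostly left of 0, no point of UVA + CT against UVA is red, and the widest intervals are those of ABCG1 and ABCA1, the genes with the fewest counts.

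Of the 8 enzymes from acetyl-CoA to squalene, 1 rose and 1 fell after UVA. This is 12.5% each, against 10.5% and 10.6% of all tested genes. HMGCS1 makes HMG-CoA, the unit from which mevalonate is formed. Its levels were 520.3, 414 and 414 CPM in the NC libraries, 569, 598 and 564 in the UVA libraries and 479, 480.0 and 557 in the UVA + CT libraries. Every UVA library was above every NC library, NC 1 stood above the other NC libraries, and UVA + CT lay between, overlapping NC and falling below UVA without overlap. The rise after UVA was 1.28-fold (log2 0.36, SE 0.10, adjusted p = 0.0466). UVA + CT was at -0.19 on the log2 scale against UVA (interval -0.43 to 0.05, adjusted p = 0.491), and at 0.17 against NC (adjusted p = 0.274). The rise lost its call without NC 2, NC 3, any UVA library, CT 1 or CT 2 (adjusted p up to 0.144), and with only the 2 groups compared, and without NC 1 its adjusted p was 9.59e-06 and UVA + CT was called lower than UVA. In GENCODE 29, 15.0% of the exon bases of HMGCS1 are shared with an antisense gene, and the strand used in counting is not given in the sources used here.

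MVK, mevalonate kinase, phosphorylates mevalonate. Its levels were 45.0, 42.6 and 44.1 CPM in NC, 40.7, 32.0 and 36.6 in UVA and 35.0, 35.7 and 33.6 in UVA + CT. All 6 irradiated libraries were below all 3 NC libraries, and UVA and UVA + CT overlapped. MVK fell by 0.27 on the log2 scale after UVA (SE 0.07, adjusted p = 0.0141) and by 0.34 in UVA + CT against NC (SE 0.07, adjusted p = 0.00177). Without UVA 2, the lowest library, the fall after UVA had an adjusted p of 0.102, while that in UVA + CT kept its call without any single library.

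FDFT1, squalene synthase, joins farnesyl units into squalene and is the step that commits them to sterols. It measured 421, 396 and 405 CPM in NC, 391, 379.8 and 397 in UVA and 369, 346 and 395 in UVA + CT. The group means stepped down in that order, UVA overlapped both other groups, and the lowest NC library was just above the highest UVA + CT library. FDFT1 fell by 0.14 in UVA + CT against NC on the log2 scale (SE 0.04, adjusted p = 0.0216), and stood at -0.07 in UVA against NC (adjusted p = 0.325). That fall was lost without NC 1 or CT 2, with an adjusted p of up to 0.146.

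The other 5 enzymes of this stretch passed the edgeR test in none of the comparisons. ACAT2, the cytosolic thiolase that starts the pathway, averaged 95.7 ± 8.73 CPM in NC, 98.4 ± 1.96 in UVA and 88.8 ± 8.94 in UVA + CT (SD, n = 3). PMVK, which adds the next phosphate after MVK, averaged 14.6 ± 0.400 CPM in NC, 14.2 ± 0.694 in UVA and 17.3 ± 2.10 in UVA + CT, with UVA + CT at 0.28 against UVA on the log2 scale (interval 0.07 to 0.49, adjusted p = 0.204) and no overlap between the 2 groups. Without CT 1 it was called higher in UVA + CT against NC. MVD, which then removes carbon dioxide to give the isoprene unit, averaged 55.1 ± 6.19 CPM in NC, 54.8 ± 5.81 in UVA and 46.5 ± 4.10 in UVA + CT, with UVA + CT at -0.24 against UVA (interval -0.44 to -0.03, adjusted p = 0.291). Against NC, where edgeR gave MVD -0.24 (adjusted p = 0.0668), DESeq2 called it lower, as did edgeR without NC 2, UVA 1, UVA 3 or CT 3. IDI1, which interconverts the isoprene units, was the most level of the 5, at 273 ± 20.9 CPM in NC, 274 ± 3.31 in UVA and 279 ± 15.1 in UVA + CT. FDPS, which builds farnesyl diphosphate, averaged 245 ± 12.5 CPM in NC, 241 ± 8.70 in UVA and 227 ± 9.39 in UVA + CT, and was called lower in UVA + CT against NC without NC 3 or CT 3, as was ACAT2 without CT 3. Their log2 fold changes spanned -0.03 to 0.04 after UVA. In GENCODE 29, other genes on the opposite strand share 33.9% (SOD2-OT1) and 26.5% (SOD2) of the exon bases of ACAT2, 18.6% of those of FDPS and 14.8% of those of IDI1.

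Of the 10 enzymes from squalene to cholesterol, 0 rose and 0 fell after UVA at the adjusted threshold in edgeR, DESeq2 and limma-voom. In edgeR 10.5% of all tested genes rose and 10.6% fell. Before adjustment, edgeR gave 2 of them a p under 0.05, LSS and NSDHL, which were lower, where 16.6% of all tested genes were lower at that level. In UVA + CT against NC 2 of them fell and 0 rose, 20% and 0% against 14.2% and 15.7% of all tested genes. LSS, lanosterol synthase, folds squalene epoxide into the first sterol ring. It measured 104, 87.7 and 94.1 CPM in NC, 93.9, 80.0 and 83.3 in UVA and 78.8, 78.5 and 77.7 in UVA + CT. The UVA + CT libraries were close together and below all 6 others, whereas UVA and NC overlapped. LSS fell by 0.28 on the log2 scale against NC (SE 0.06, adjusted p = 0.00231), and was at -0.15 in UVA against NC (adjusted p = 0.102) and at -0.13 in UVA + CT against UVA (adjusted p = 0.384). LSS was also called lower in UVA against NC without NC 2 or UVA 1, and with no filter on low counts.

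TM7SF2 is a sterol reductase that works beside the lamin B receptor on the same double bond. Its counts were few, with 5.40, 5.62 and 5.35 CPM in NC, 3.83, 3.84 and 5.32 in UVA and 3.22, 3.44 and 2.85 in UVA + CT. The UVA + CT libraries were below all others, and UVA 3 stood near the NC level while the other 2 UVA libraries did not. TM7SF2 was 1.72-fold lower in UVA + CT than in NC (log2 -0.78, SE 0.18, adjusted p = 0.00235). Against UVA it was at -0.46 (interval -0.84 to -0.07, adjusted p = 0.265), and UVA against NC was at -0.33 (adjusted p = 0.203). The falls of LSS and TM7SF2 against NC kept their calls without any single library.

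The other 8 late enzymes passed the edgeR test in none of the comparisons. SQLE, squalene epoxidase, which adds the oxygen needed for ring closure, averaged 274 ± 28.8 CPM in NC, 287 ± 10.1 in UVA and 271 ± 19.2 in UVA + CT. CYP51A1, which removes a methyl group from lanosterol, averaged 189 ± 28.1 CPM in NC, 221 ± 6.22 in UVA and 222 ± 23.1 in UVA + CT, at 0.23 on the log2 scale in UVA against NC (interval -0.05 to 0.50, adjusted p = 0.226). NC 1 held 220.3 CPM of CYP51A1 against 166 and 179.8 in the other NC libraries, and without NC 1 both CYP51A1 and SQLE were called higher in UVA, and CYP51A1 in UVA + CT against NC. In GENCODE 29, 79.4% of the exon bases of CYP51A1 are also assigned to a second gene on the same strand, so its counts are uncertain. MSMO1, a sterol methyl oxidase, averaged 279.9 ± 23.4 CPM in NC, 279 ± 5.99 in UVA and 261 ± 14.8 in UVA + CT. NSDHL, which works with it, was at 74.6 ± 3.89 CPM in NC, 68.4 ± 2.92 in UVA and 69.0 ± 4.32 in UVA + CT, and HSD17B7, the reductase of that complex, at 16.2 ± 1.93 CPM in NC, 16.7 ± 0.779 in UVA and 16.3 ± 1.67 in UVA + CT. A pseudogene of HSD17B7 held 203 counts beside 2820 for the gene (7.20%). EBP, which shifts a double bond in the ring, averaged 71.6 ± 3.89 CPM in NC, 73.6 ± 3.36 in UVA and 74.9 ± 4.41 in UVA + CT. SC5D, which adds one, averaged 132 ± 11.1 CPM in NC, 125 ± 7.07 in UVA and 119 ± 10.4 in UVA + CT, and DHCR7, which makes cholesterol from its last precursor, averaged 224 ± 24.1 CPM in NC, 218 ± 14.3 in UVA and 217 ± 10.2 in UVA + CT. Without NC 2, SC5D and MSMO1 were called lower in UVA + CT against NC. None of these 8 differed by more than 0.23 on the log2 scale in any comparison.

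**Figure D3:**
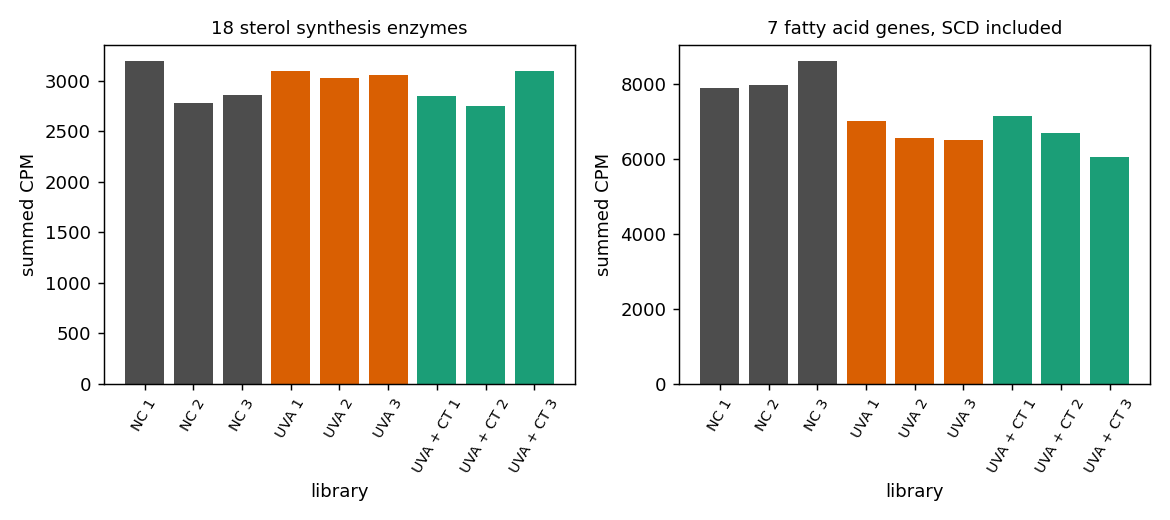
Summed CPM of the 18 cholesterol enzymes (left) and of the 7 fatty acid genes with SCD (right) in each of the 9 libraries, coloured by group, with both axes starting at 0. The enzyme sums of the 3 groups overlap, whereas the fatty acid sums of all 6 irradiated libraries are below those of the 3 NC libraries.

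Summed over the 18 cholesterol enzymes, the level was 2947 ± 223 CPM in NC, 3064 ± 34.6 in UVA and 2900 ± 183 in UVA + CT (SD, n = 3). The sums of the 3 groups overlapped. The spread within NC and within UVA + CT came from 1 library each. NC 1 had the highest level of the NC libraries for 15 of the 18 enzymes, where it was highest for 35.9% of all tested genes, and CT 3 was highest of its group for 13 of 18, against 37.7% of all tested genes. UVA 1 was highest of its group for 10 of 18, against 32.8%. The same NC 1 and CT 3 were the lowest of their groups for SREBF1. Without NC 1 the members called higher after UVA were HMGCS1, CYP51A1, SQLE and ELOVL6, 4 in place of 2.

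The SREBP genes were led by SREBF1, at chr17:17810399-17837002 (GENCODE 29, GRCh38). Its levels were 244, 283 and 299.7 CPM in NC, 188, 152 and 166 in UVA and 209, 194 and 133 in UVA + CT. All 6 irradiated libraries were below the lowest NC library, and CT 3 was the lowest of the 9. SREBF1 was 1.63-fold lower in UVA than in NC (log2 -0.71, SE 0.19, adjusted p = 0.0425) and 1.54-fold lower in UVA + CT than in NC (log2 -0.62, SE 0.19, adjusted p = 0.0480). Between UVA + CT and UVA the log2 difference was 0.08, with an interval of -0.37 to 0.54. Both falls were large in size but near the threshold, and each was lost without any 1 of the NC or UVA libraries or without CT 2 (adjusted p up to 0.135 and 0.141). Both were also lost with no filter on low counts, and the fall in UVA + CT with only the 2 groups compared or with scaling by library totals.

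SREBF2, which drives the cholesterol enzymes and carries the response element printed above, differed less between groups. It measured 257, 262 and 256 CPM in NC, 249, 227 and 249.7 in UVA and 232, 228 and 227 in UVA + CT. The NC libraries were all above the others. SREBF2 fell by 0.17 on the log2 scale in UVA + CT against NC (SE 0.04, adjusted p = 0.00352), a call kept without any single library, and was at -0.10 in UVA against NC (adjusted p = 0.113).

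INSIG1 holds SCAP in the endoplasmic reticulum and is itself an SREBP target. It measured 184, 178 and 198 CPM in NC, 184, 179.8 and 185 in UVA and 184, 160.4 and 159 in UVA + CT, so CT 1 lay among the NC libraries and the other 2 below them. INSIG1 fell by 0.15 on the log2 scale in UVA + CT against NC (SE 0.05, adjusted p = 0.0375), although the groups overlapped. The call was lost without NC 3, any UVA library, CT 2 or CT 3 (adjusted p up to 0.170) and with only the 2 groups compared, and without CT 1 INSIG1 was also called lower in UVA + CT than in UVA. INSIG2, the second anchor, averaged 39.9 ± 0.733 CPM in NC, 42.0 ± 3.38 in UVA and 43.6 ± 0.493 in UVA + CT, and SCAP, the escort, averaged 29.2 ± 2.00 CPM in NC, 30.9 ± 2.13 in UVA and 31.9 ± 1.66 in UVA + CT. Neither passed the test, and both had log2 fold changes between 0.04 and 0.13 in the 3 comparisons.

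**Figure D4:**
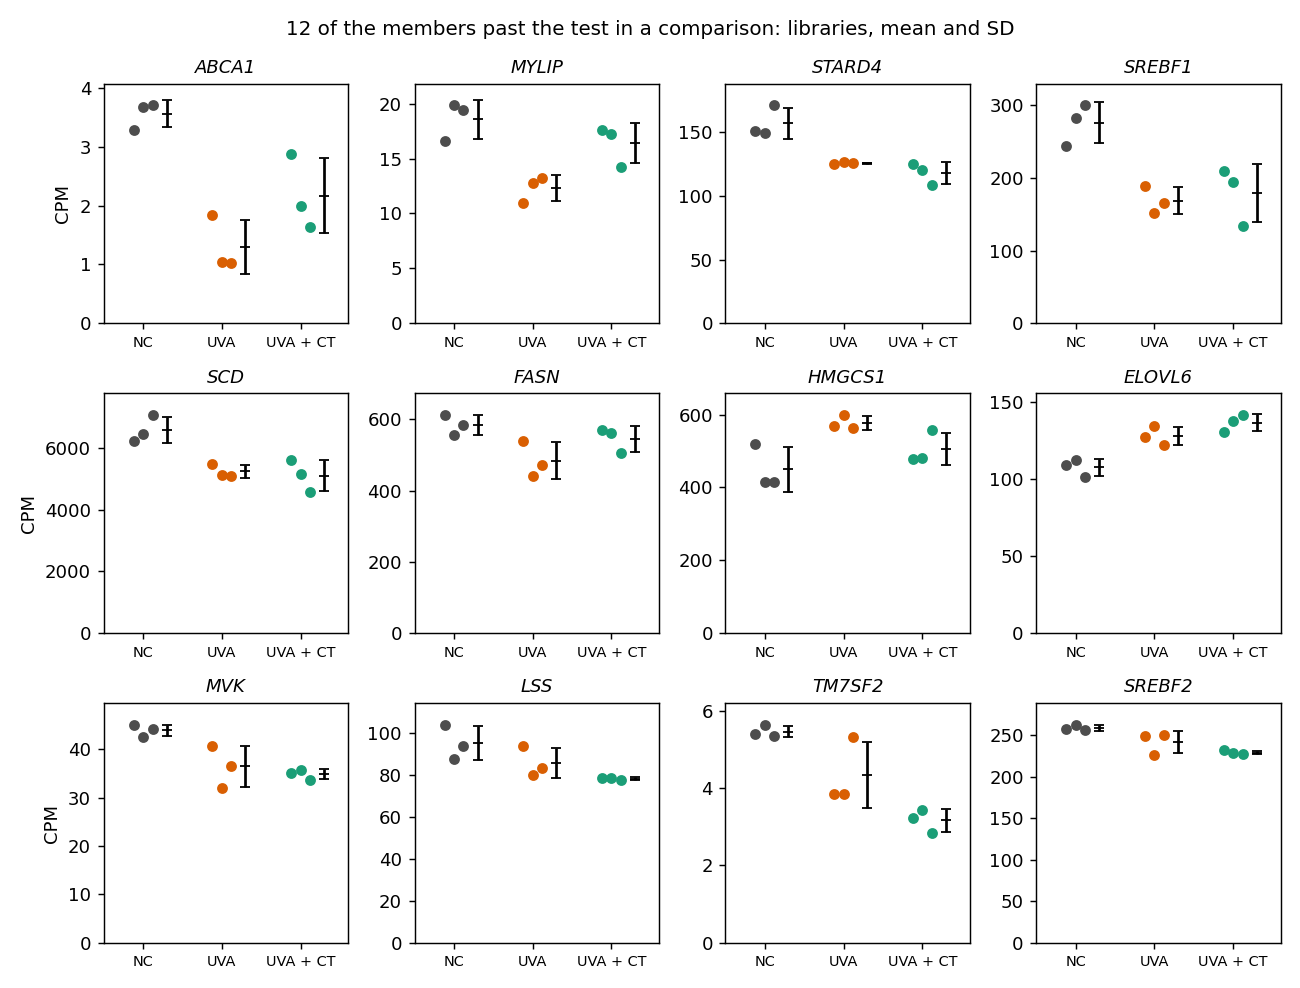
CPM of 12 genes that passed the test in a comparison, 1 panel a gene, with each library as a point and the group mean and SD (n = 3) as a bar beside the points, on axes that start at 0. In ABCA1 and MYLIP the UVA mean is the lowest and UVA + CT lies between, in STARD4, SREBF1 and SCD all 6 irradiated libraries are below NC, and in ELOVL6 all 6 are above NC.

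Among transport and efflux genes ABCA1, at chr9:104781002-104928237, had the largest change of all 36 after UVA. It pumps cholesterol and phospholipid out of the cell and is a classic LXR target, with the direct repeat in its promoter printed above. Its levels were 3.29, 3.68 and 3.70 CPM in NC, 1.83, 1.03 and 1.02 in UVA and 2.88, 1.99 and 1.63 in UVA + CT. All UVA and UVA + CT libraries were below all NC libraries, and the 2 irradiated groups overlapped, with UVA 1 above the lowest UVA + CT library. ABCA1 was 2.73-fold lower after UVA (log2 -1.45, SE 0.28, adjusted p = 0.000880). UVA + CT was 1.64-fold lower than NC (log2 -0.71, SE 0.26, adjusted p = 0.0414) and at 0.74 against UVA (interval 0.14 to 1.33, adjusted p = 0.243). ABCA1 had few counts, 17 to 68 a library. The fall after UVA kept its call without any single library, and that in UVA + CT against NC was lost without any 1 of the NC libraries, CT 2 or CT 3 (adjusted p up to 0.173), and with DESeq2.

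MYLIP, at chr6:16129125-16148248, is an LXR-induced ubiquitin ligase that marks lipoprotein receptors for breakdown. It measured 16.6, 19.8 and 19.4 CPM in NC, 10.9, 12.8 and 13.2 in UVA and 17.6, 17.3 and 14.3 in UVA + CT. The UVA libraries were below all others, and UVA + CT overlapped NC but not UVA. MYLIP was 1.51-fold lower after UVA (log2 -0.59, SE 0.11, adjusted p = 0.000739), a call kept without any single library. UVA + CT was 1.33-fold the UVA level (log2 0.41, interval 0.18 to 0.64) with an adjusted p of 0.0686, just short of the threshold, and at -0.18 against NC (adjusted p = 0.214). The difference between UVA + CT and UVA passed with DESeq2 and with no filter on low counts (adjusted p = 0.00946). It also passed without NC 1 or CT 3, and stayed uncalled in the other 15 of 19 alternative settings. Fits that left out another library gave an adjusted p of up to 0.288, and those that left out none up to 0.110.

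STARD4, at chr5:111496033-111512590, carries cholesterol between membranes and is an SREBP-2 target. It measured 151, 149 and 171 CPM in NC, 125, 126 and 126 in UVA and 125, 121 and 108 in UVA + CT. The 6 irradiated libraries were all below the 3 NC libraries, and the UVA libraries were almost identical to each other. STARD4 fell by 0.32 on the log2 scale after UVA (SE 0.06, adjusted p = 0.000566) and by 0.41 in UVA + CT against NC (SE 0.06, adjusted p = 3.17e-05). Both calls were kept without any single library.

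The other 3 genes of this role passed the edgeR test in none of the comparisons. ABCG1, which passes cholesterol to high density lipoprotein, was near the limit of the counts at 1.08, 1.19 and 0.764 CPM in NC, 0.722, 1.10 and 0.358 in UVA and 1.97, 1.89 and 0.933 in UVA + CT. CT 1 and CT 2 were the highest of the 9 libraries, while CT 3 lay within the range of NC. UVA + CT was at 1.15 on the log2 scale against UVA (interval 0.30 to 2.00, adjusted p = 0.191), the widest interval of the 36. The receptors themselves differed by less than the spread of the libraries. NR1H2, which encodes LXR beta, averaged 23.9 ± 1.04 CPM in NC, 23.3 ± 1.47 in UVA and 24.2 ± 1.46 in UVA + CT, and NR1H3, which encodes LXR alpha, averaged 8.53 ± 1.66 CPM in NC, 7.48 ± 0.627 in UVA and 7.62 ± 0.657 in UVA + CT, with NC 2 at 10.4 CPM above the other 8 libraries.

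Of the 7 fatty acid genes, SCD, at chr10:100347124-100364834, outweighed the rest. It is the desaturase that makes oleic from stearic acid. Its levels were 6223, 6460.1 and 7061 CPM in NC, 5493, 5135 and 5092 in UVA and 5598, 5144 and 4581 in UVA + CT. All 6 irradiated libraries were below the 3 NC libraries, and CT 3 was the lowest of all. SCD fell by 0.33 on the log2 scale after UVA (SE 0.07, adjusted p = 0.0131) and by 0.37 in UVA + CT against NC (SE 0.07, adjusted p = 0.00544), with -0.04 between UVA + CT and UVA (interval -0.20 to 0.13). The call after UVA was lost without UVA 2 (adjusted p = 0.0723), and that in UVA + CT against NC was kept without any single library.

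FASN, the synthase that assembles palmitate, measured 612, 555 and 584 CPM in NC, 540.2, 439.8 and 473 in UVA and 572, 561 and 505 in UVA + CT. The UVA libraries were below the NC libraries, and UVA + CT overlapped both. FASN fell by 0.27 on the log2 scale after UVA (SE 0.08, adjusted p = 0.0316). UVA + CT was at 0.17 against UVA (adjusted p = 0.370) and at -0.10 against NC (adjusted p = 0.382). The fall was lost without NC 1, NC 3, UVA 2 or UVA 3 (adjusted p up to 0.130).

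ACACA, acetyl-CoA carboxylase, provides the malonyl-CoA that FASN uses. It measured 323, 308 and 309 CPM in NC, 289, 289.9 and 269 in UVA and 309.6, 304 and 273 in UVA + CT, where CT 1 lay among the NC libraries and CT 3 among the UVA libraries. ACACA fell by 0.15 on the log2 scale after UVA (SE 0.05, adjusted p = 0.0278), and this call was lost without any 1 of the NC or UVA libraries (adjusted p up to 0.161). UVA + CT was at 0.07 against UVA and -0.08 against NC.

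ELOVL6 went the other way. This enzyme lengthens palmitate to stearate, the substrate of SCD. Its levels were 109, 113 and 102 CPM in NC, 128, 134 and 122 in UVA and 131, 138 and 142 in UVA + CT. All irradiated libraries were above all NC libraries, and UVA and UVA + CT overlapped. ELOVL6 rose 1.19-fold after UVA (log2 0.25, SE 0.05, adjusted p = 0.00149) and 1.27-fold in UVA + CT against NC (log2 0.34, SE 0.05, adjusted p = 3.83e-05). Both calls were kept without any single library, and ELOVL6 was the only member called higher in both comparisons with NC, where MVK, SREBF1, STARD4, ABCA1 and SCD were called lower in both.

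The last 3 fatty acid genes passed the edgeR test in none of the comparisons, and ACLY was called lower in UVA + CT against NC without NC 2. ACLY, which makes cytosolic acetyl-CoA from citrate for both pathways, averaged 557 ± 49.5 CPM in NC, 542 ± 9.14 in UVA and 527 ± 7.87 in UVA + CT. The desaturases of polyunsaturated fatty acids were low, FADS1 at 12.9 ± 1.19 CPM in NC, 10.9 ± 1.46 in UVA and 11.1 ± 0.761 in UVA + CT and FADS2 at 5.45 ± 0.618 CPM in NC, 4.80 ± 1.05 in UVA and 5.56 ± 0.150 in UVA + CT. FADS1 was at -0.25 on the log2 scale after UVA (interval -0.49 to 0.00, adjusted p = 0.154). Summed over the 7 genes the level was 8161 ± 399 CPM in NC, 6693 ± 280 in UVA and 6629 ± 556 in UVA + CT, and without SCD it was 1580 ± 83.7, 1453 ± 61.2 and 1521 ± 47.6. The 2 irradiated groups were below NC without overlap in the first sum, whereas without SCD the 3 groups overlapped.

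Levels per kilobase of exon (mean CPM over the exon length in GENCODE 29) allow the genes to be set beside each other within NC. SCD was the highest of the 36 at 1227 CPM per kilobase. ACLY at 106.7, MSMO1 at 96.8 and HMGCS1 at 95.6 came next, and these 3 were close to each other. SREBF1 and SREBF2 were level in NC at 34.3 and 34.2 CPM per kilobase, and after UVA stood at 21.0 and 32.0. The efflux pumps were the lowest of all, with ABCA1 at 0.313 and ABCG1 at 0.165. TM7SF2, another low member, was at 1.60, FADS1 at 1.26 and FADS2 at 0.494.

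A further 54 genes of sterol and lipid metabolism, listed by role, gave 52 that were tested. After UVA 4 rose and 8 fell, 7.69% and 15.4% against 10.5% and 10.6% of all tested genes. In UVA + CT against UVA 1 rose and 1 fell, 1.92% each against 0.944% and 0.614% of all tested genes. In UVA + CT against NC 11 rose and 11 fell, 21.2% each against 15.7% and 14.2% of all tested genes. The median log2 fold changes of the 52 lipid genes were -0.02, 0.03 and 0.02 in the same order. HSD17B12, which takes part in the elongation of fatty acids, rose from 223 ± 5.48 CPM in NC to 266 ± 11.9 in UVA (log2 0.25, adjusted p = 0.000317). LIPA, the lysosomal lipase that frees cholesterol from its esters, fell from 601 ± 8.92 CPM in NC to 518 ± 6.61 in UVA (log2 -0.21, adjusted p = 0.000441) and to 481 ± 18.1 in UVA + CT (log2 -0.32 against NC, adjusted p = 3.92e-06). HACD2, a dehydratase of the same elongation cycle as HSD17B12, fell to 269 ± 2.86 CPM in UVA + CT from 343 ± 8.07 in NC (log2 -0.35, adjusted p = 3.85e-06). HACD2 was also lower in UVA than in NC (log2 -0.23, adjusted p = 0.000468).

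ACSS2 and ME1 were the lipid genes called between UVA + CT and UVA. ACSS2, which makes acetyl-CoA from acetate, measured 89.1, 75.6 and 82.6 CPM in NC, 81.4, 71.8 and 77.7 in UVA and 63.3, 59.6 and 59.2 in UVA + CT, where all 3 libraries were below the other 6. It fell by 0.34 on the log2 scale against UVA (SE 0.06, adjusted p = 0.00447), and without UVA 1 the adjusted p was 0.0529. ME1, malic enzyme, which supplies NADPH and is also a target of NRF2, measured 50.3, 46.0 and 50.6 CPM in NC, 44.2, 48.2 and 50.4 in UVA and 59.2, 52.8 and 64.0 in UVA + CT, again with no overlap. It rose by 0.30 on the log2 scale against UVA (SE 0.07, adjusted p = 0.0314), a call lost without any 1 of the UVA libraries, CT 1 or CT 3 (adjusted p up to 0.203). Of 4 further LXR targets, 0 rose and 1 fell after UVA (0% and 25%, against 10.5% and 10.6% of all tested genes). This was LPCAT3, chosen after its values were seen, which remodels phospholipids and fell by 0.57 on the log2 scale (SE 0.11, adjusted p = 0.00412).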

How the data were processed

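RNA of 9 HaCaT libraries (3 NC, 3 UVA, 3 UVA + CT) was captured on oligo(dT) beads and sequenced on an Illumina instrument. As deposited by the authors, the values were raw counts of 61311 genes. Tools listed in the submitters' processing notes were bcl2fastq and fastp 0.23.2, and the build was GRCh38. For the aligner, the counting program, its annotation and its strand setting, nothing is given in the sources used here. Columns were assigned to groups by their labels.

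Genes were kept by filterByExpr, scaled by TMM and tested in 1 fit over all 9 libraries with the quasi-likelihood F test of edgeR 4.0.16 (R 4.3.3, robust, no replicate block). P-values were adjusted by Benjamini-Hochberg over 15154 genes, and all adjusted p-values are from this fit unless another tool is named. Intervals are 95% t intervals of the log2 fold change. The common biological coefficient of variation was 0.0584. Chi-square per degree of freedom between libraries of a group was 2.76 to 6.98, so no library was a copy. DESeq2 1.42.0 and limma 3.58.1 were alternatives. The procedure was tested on simulated data.

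Promoters came from RefSeq, and gene positions and exon lengths from GENCODE 29 (36 of 36 matched by name, build GRCh38). The members and lists were chosen with earlier results of these data known. All members are named, those past the test with each library's value, and of the other lipid genes the 2 with the smallest adjusted p per comparison, if past the test. LPCAT3 was named outside this rule, after its values were seen.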

Additional observations from a re-analysis of the deposited data

How the results depend on the processing

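Members called in UVA against NC (2 higher, 8 lower) numbered 1 higher with only the 2 groups compared. With the replicate block they were 1 higher and 7 lower. They were 1 and 3 where the adjusted p had to be under 0.01. Where it had to be under 0.05 with a fold change over 1.5, they were 0 and 3. All tested genes called in this comparison numbered 1592 higher and 1610 lower in the main fit. They were 1674 and 1682 with only the 2 groups compared, and 1379 and 1423 with the replicate block. At 0.01 they were 852 and 876, and with the fold limit 302 and 332. In UVA + CT against UVA (0 and 0) no filter on low counts gave 2 higher and 1 lower, and DESeq2 gave 1 higher. Of all tested genes 143 and 93 were called in the main fit, 329 and 232 with no filter and 181 and 128 with DESeq2. In UVA + CT against NC (1 higher, 10 lower) 6 were lower at 0.01. With a fold change over 1.5, 0 were higher and 3 lower. All tested genes called there were 2372 higher and 2145 lower in the main fit. At 0.01 they were 1472 and 1288, and with the fold limit 386 and 540. Leaving out 1 library gave 1 to 4 higher and 3 to 8 lower in UVA against NC, 0 to 1 and 0 to 1 in UVA + CT against UVA, and 1 to 3 and 6 to 12 in UVA + CT against NC. For all tested genes, leaving out 1 library gave 1053 to 1715 higher and 1071 to 1690 lower in UVA against NC. These ranges were 62 to 239 and 33 to 133 in UVA + CT against UVA. They were 1741 to 2438 and 1610 to 2185 in UVA + CT against NC. Of the members' calls in UVA against NC, 4 of 10 were kept without any single library. In UVA + CT against NC 7 of 11 were kept. The calls of all tested genes kept in this way were not counted. Scaling by library totals alone lost the falls of FASN and ACACA after UVA and of SREBF1 in UVA + CT against NC, where it added MVD and FDPS. DESeq2, no filter, at least 10 counts in every library and only the 2 groups compared added MVD there too, and no filter also SC5D. No alternative turned a direction of a named gene's called change. Other scalings moved the median of all genes by less than 0.02 on the log2 scale. The causes of these changes were not tested, beyond the stricter thresholds and smaller sample numbers themselves.

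The other lipid genes called in UVA against NC (4 higher, 8 lower) were 4 lower where the adjusted p had to be under 0.01, 0 and 0 in each direction with a fold change over 1.5, and 3 to 8 higher and 4 to 10 lower when 1 library was left out. In UVA + CT against UVA (1 and 1) they were 0 higher at 0.01, 0 and 0 with a fold change over 1.5, and 0 to 1 higher and 0 to 2 lower without 1 library. In UVA + CT against NC (11 and 11) they were 5 higher at 0.01. With a fold change over 1.5 they were 1 higher and 2 lower. Without 1 library they were 4 to 11 higher and 9 to 12 lower. The counts of all tested genes given above are for the same settings.

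Libraries that share a number did not deviate together (correlations of -0.05 to 0.03 over 9 pairs, 0 of them over 0.1), so the replicate block was not used as the main fit. With it HMGCS1 and SREBF1 lost their calls in UVA against NC, UVA + CT against UVA stayed at 0 and 0, and UVA + CT against NC had 1 higher and 10 lower, with SREBF1 lost and SC5D gained. The count of ABCA1 and ABCG1 limits what their intervals can show.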
